A study of Mus musculus with 12 samples.

Results

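Collagen chain genes were followed across all 12 arrays of a mouse neural differentiation series. They were chosen by name, as every gene whose symbol on the array had the form Col, a number, a and a number, and they came to 41 of 35831 named genes, with 63 of 55681 non-control probes. By textbook class 11 were fibrillar, 6 were basement membrane and 24 were other chains, among them 9 FACIT (fibril-associated), 4 beaded-filament, 4 transmembrane and 3 network chains. Only 1 probe stood for each of 26 members and several for the other 15. Col6a3, Col6a5 and Col26a1 had probes only under other names on the array and were therefore not members.

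Collagens are secreted proteins in which 3 chains wind into a triple helix, each chain being a long repeat of glycine followed by a pair of other residues. Fibrillar chains build the tension-bearing fibrils of connective tissue, type IV chains build the sheet of basement membranes that underlies epithelia, vessels and the pial surface of the brain, and the others decorate fibrils, form beaded filaments or span the cell membrane. In embryonic brain the fibrillar and beaded-filament chains are made mainly by meningeal and perivascular cells, whereas basement membrane chains come from vessels and meninges.

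Neurons were derived from male embryonic stem cells of 129/Ola background and harvested at day 16 of differentiation, with 4 culture groups of 2 arrays each. All 4 groups received the WNT inhibitor 53AH (2.5 µM) and the BMP inhibitor LDN193189 (0.25 µM) from day 0. These ended at day 11 in WiBi_0-11, which the labels call isocortical, and at day 16 in WiBi_0-16. In CHIR_8-16, called hippocampal, both were withdrawn at day 8, and the cells then had the WNT agonist CHIR (3 µM) until day 16, and in CHIR_11-16 the agonist followed from day 11 to day 16 at a dose the labels do not give. The steps of the growth protocol place the change to CHIR at day 7 rather than day 8. Cells grew on polyornithine and laminin, so a basement membrane protein was supplied from outside. A further 4 arrays held cortex, hippocampus, ventral telencephalon and midbrain of Sv129s6 embryos of both sexes at embryonic day 15 (E15), 1 array per tissue. RNA of 3 sets of experiments was pooled in each sample, and nothing states that replicates were separate cultures, so a p-value reflects spread among these arrays alone, which may be technical. In bulk RNA, fewer cells of a type and less RNA per cell cannot be told apart.

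The sequences below show where 4 of the members described start, and what 2 of the probes read. Of the 41 members, 33 had an entry in the RefSeq promoter table (GRCm38.p6), and Col1a1 and Col22a1 were not among them. Each upstream stretch is the 200 bases before the annotated gene start, 5′ to 3′ on the strand of the gene, with motif matches in capitals. Both strands were searched for a GC box, spelled GGGCGG, and for the CCAAT box, spelled as its name. A TATA box was taken as the letters TATAAA wherever they stood. The core that TCF/LEF factors bind was taken as CTTTGA, or as the same letters with a final T in place of A. No matches overlapped in these stretches. Col3a1, on the plus strand at chr1:45311338-45311537, is shown because it was the member called in both comparisons that had a call. Col1a2, on the plus strand at chr6:4505418-4505617, is its most comparable fibrillar neighbour in the results. Col4a5 (plus strand, chrX:141475170-141475369) and Col4a6 (minus strand, chrX:141474096-141474295) are shown because the genes lie head to head with 1274 bases between them, and their stretches face each other.
Col3a1 upstream: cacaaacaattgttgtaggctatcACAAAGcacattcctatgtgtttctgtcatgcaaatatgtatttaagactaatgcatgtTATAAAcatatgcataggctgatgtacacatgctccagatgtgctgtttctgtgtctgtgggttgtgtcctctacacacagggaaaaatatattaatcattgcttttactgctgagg
Col1a2 upstream: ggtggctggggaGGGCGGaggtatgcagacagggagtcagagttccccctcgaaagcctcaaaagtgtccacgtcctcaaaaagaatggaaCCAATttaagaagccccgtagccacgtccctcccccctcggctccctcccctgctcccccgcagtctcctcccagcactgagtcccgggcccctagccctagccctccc
Col4a5 upstream: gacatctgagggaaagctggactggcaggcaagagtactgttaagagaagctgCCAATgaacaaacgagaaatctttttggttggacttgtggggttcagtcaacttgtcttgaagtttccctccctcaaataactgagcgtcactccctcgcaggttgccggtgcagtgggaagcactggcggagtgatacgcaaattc
Col4a6 upstream: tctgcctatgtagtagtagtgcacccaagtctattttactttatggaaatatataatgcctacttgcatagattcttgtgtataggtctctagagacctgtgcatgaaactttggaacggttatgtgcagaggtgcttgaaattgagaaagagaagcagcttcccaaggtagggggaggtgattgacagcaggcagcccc

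The Col3a1 stretch held 1 TATA box and, on the opposite strand, 1 TCF/LEF core, and the Col1a2 stretch held 1 GC box and 1 CCAAT box. Col4a5 held 1 CCAAT box, and none of these letters stood in the Col4a6 stretch. Of 32843 mouse promoters, the 200 bases before the start held a GC box in 31.1%, a TATA box in 10%, a CCAAT box in 29.4% and a TCF/LEF core in 22.5%, so each match is a common one. Of the 63 collagen probes, 2 carried the helix repeat along their length, a glycine codon every 9 bases. One of them reads Col25a1 (mm9 chr3:130270497-130270556), and its 6 glycine codons are in capitals. The second Col4a6 probe (mm9 chrX:137601433-137601491) is shown because it differed from the first in the results.
Col25a1 probe: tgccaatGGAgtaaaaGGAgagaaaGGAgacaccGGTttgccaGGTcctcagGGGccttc
Col4a6 second probe: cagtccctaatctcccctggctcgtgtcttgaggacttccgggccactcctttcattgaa

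Values are log2 of the processed signal over the 75th percentile of its own array, and they compare arrays for 1 probe, not genes with each other. A gene was tested in the cultures if 1 of its probes cleared the scanner's background test in both replicates of some group, and 31 of the 41 members were among the 25538 genes tested (9 fibrillar, 5 basement membrane, 17 other). Of the 10 not tested, 6 were above background on no culture array (Col4a3, Col6a6, Col8a1, Col13a1, Col24a1 and Col28a1) and 4 on 1 or 2 of them (Col5a3, Col9a3, Col10a1 and Col17a1). On each array 59.1% to 71.2% of spots were well above background and 0 were saturated, and the number of arrays limits the precision. The 8 neuron markers and the 7 neural progenitor markers were above background on every array. Slide 2 carried every replicate 1 and slide 3 every replicate 2. Between these slides 34.4% of all genes and 11 of the 31 members differed with group in the model (limma, adjusted p under 0.05). Of those 11 members 7 were higher and 4 lower on slide 3 (24.3% and 10.1% of all genes), from Col8a2 (log2 1.27, SE 0.15, adjusted p = 0.00467) to Col25a1 (log2 -1.21, SE 0.16, adjusted p = 0.00593), and Col1a2 was lower there by a log2 of -1.02 (adjusted p = 0.0385). The direction for Col25a1 depended on the probe, since its helix probe was higher on slide 3 in every group. Since each slide carried all 4 groups, differences are reported from models without slide, with slide as a block, and slide by slide.

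With slide as a block, 3 collagen genes differed between the agonist and the inhibitor-only cultures: Col3a1 was lower with the agonist, and Col4a6 and Col22a1 were higher. The agonist groups had inhibitors to day 8 or 11 and the inhibitor-only groups to day 11 or 16. Agonist and length of inhibition therefore cannot be told apart in this comparison, which is meant wherever a gene rose, fell or differed with the agonist. CHIR_11-16 and WiBi_0-11 both had inhibitors to day 11, and no member passed between them. Without the block no member passed at the same settings in any of the 5 comparisons or in the test for any difference among the 4 groups (limma, adjusted p under 0.05), against 0.0117% of all genes for CHIR_8-16 with WiBi_0-11 and 0.00392% for the agonist cultures with the inhibitor-only cultures. Other settings without the block did call members in the agonist comparison (limma): Col22a1 after quantile normalization, with or without normexp, and Col22a1 and Col3a1 with a prior variance that followed the signal level. At an unadjusted p under 0.05 there were 12 of 31 members in the first, 11 in the second and 11 in the test among the 4 groups, beside 9.62%, 14.6% and 8.86% of all genes. With the block 3 of 31 passed in the agonist comparison, against 4.95% of all genes (2.87% higher, 2.08% lower), and 1 of 31 in CHIR_8-16 with WiBi_0-11, against 0.309%. In the test among the 4 groups 0 of 31 passed with the block (limma), against 0.0548% of all genes, with 15 members at an unadjusted p under 0.05 beside 22.9% of all genes. In the other 3 comparisons 0 of 31 passed with the block (limma). The share of all genes was 0.0117% for CHIR_11-16 and for WiBi_0-16 with WiBi_0-11 and 0.00783% between the agonist groups, and 7, 10 and 8 members were at an unadjusted p under 0.05 beside 12.5%, 10.8% and 11.6% of all genes. The members' median log2 difference with the agonist was -0.06, with 14 higher and 17 lower, beside 0.001 over all genes.

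**Figure D1:**
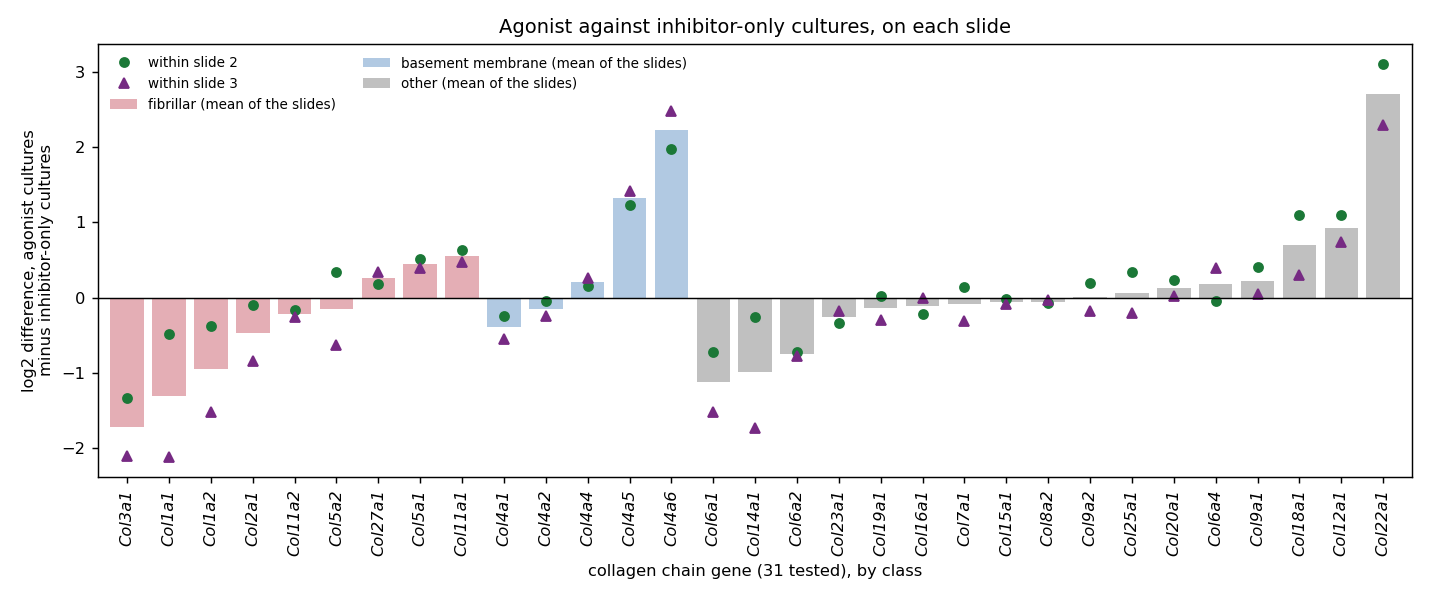
The log2 difference between the 4 agonist and the 4 inhibitor-only cultures for the 31 tested collagen genes, grouped by class; bars are the mean over the slides, circles the difference within slide 2 and triangles within slide 3. Col3a1 is lowest among the fibrillar genes at -1.72, Col4a5 and Col4a6 stand at 1.32 and 2.22, Col22a1 at 2.70, and most of the rest lie near 0.

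Among the fibrillar genes Col1a1, Col1a2 and Col3a1 had their highest means in WiBi_0-11 and their lowest in CHIR_8-16, and of these Col3a1 passed. It encodes the chain of type III collagen, which forms fine fibrils with type I in elastic tissues and is a ligand of the receptor Adgrg1 in the developing cortex. Its log2 values, replicate 1 then 2, were 1.52 and 1.88 in WiBi_0-11, -0.73 and -1.47 in CHIR_8-16, 0.37 and -0.18 in CHIR_11-16, and 0.80 and 0.66 in WiBi_0-16 (probe at mm9 chr1:45405589-45405648). All 4 agonist arrays lay below all 4 inhibitor-only arrays, and CHIR_8-16 lay below every other array. In the agonist comparison Col3a1 fell 3.30-fold (log2 -1.72, block SE 0.20, limma adjusted p = 0.0309 with the block and 0.102 without; -1.34 on slide 2, -2.10 on slide 3). In CHIR_8-16 against WiBi_0-11 it fell 6.99-fold (log2 -2.81, block SE 0.28, adjusted p = 0.0448 with the block and 0.183 without; -2.25 and -3.36). The calls were lost in most fits that left out 1 array. Such a fit leaves 1 array in a group, so it cannot show whether a call rests on the array left out. Over the fits with the block, these included, Col3a1 differed by -3.23 to -2.38 in CHIR_8-16 against WiBi_0-11 and by -1.93 to -1.51 in the agonist comparison. With all arrays kept, 6 of 7 fits with the block called it in CHIR_8-16 against WiBi_0-11, the exception being the fit of only these 2 groups, and 6 of 6 did in the agonist comparison.

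Col1a1 and Col1a2 encode the chains of type I collagen, the main protein of bone, tendon and skin. Col1a1 measured 1.82 and 1.67 in WiBi_0-11, -0.06 and -1.99 in CHIR_8-16, 0.97 and -0.35 in CHIR_11-16, and 0.06 and 0.24 in WiBi_0-16. Col1a2 measured 2.32 and 2.12, 1.2 and -0.49, 1.60 and 0.10, and 1.23 and 0.53 in the same order. For both genes WiBi_0-11 was above all other arrays, and in both agonist groups replicate 2 lay well below replicate 1. Against WiBi_0-11, CHIR_8-16 differed in Col1a1 by a log2 of -2.77 (block SE 0.53, limma adjusted p = 0.348 without and 0.0952 with the block; -1.88 on slide 2) and in Col1a2 by -1.86 (block SE 0.39, 0.496 and 0.103; -1.12 and -2.61). Neither passed. Both did pass, with the block, in CHIR_8-16 against WiBi_0-11 and in the agonist comparison when the prior variance followed the signal level, and also after normexp background correction with quantile normalization.

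**Figure D2:**
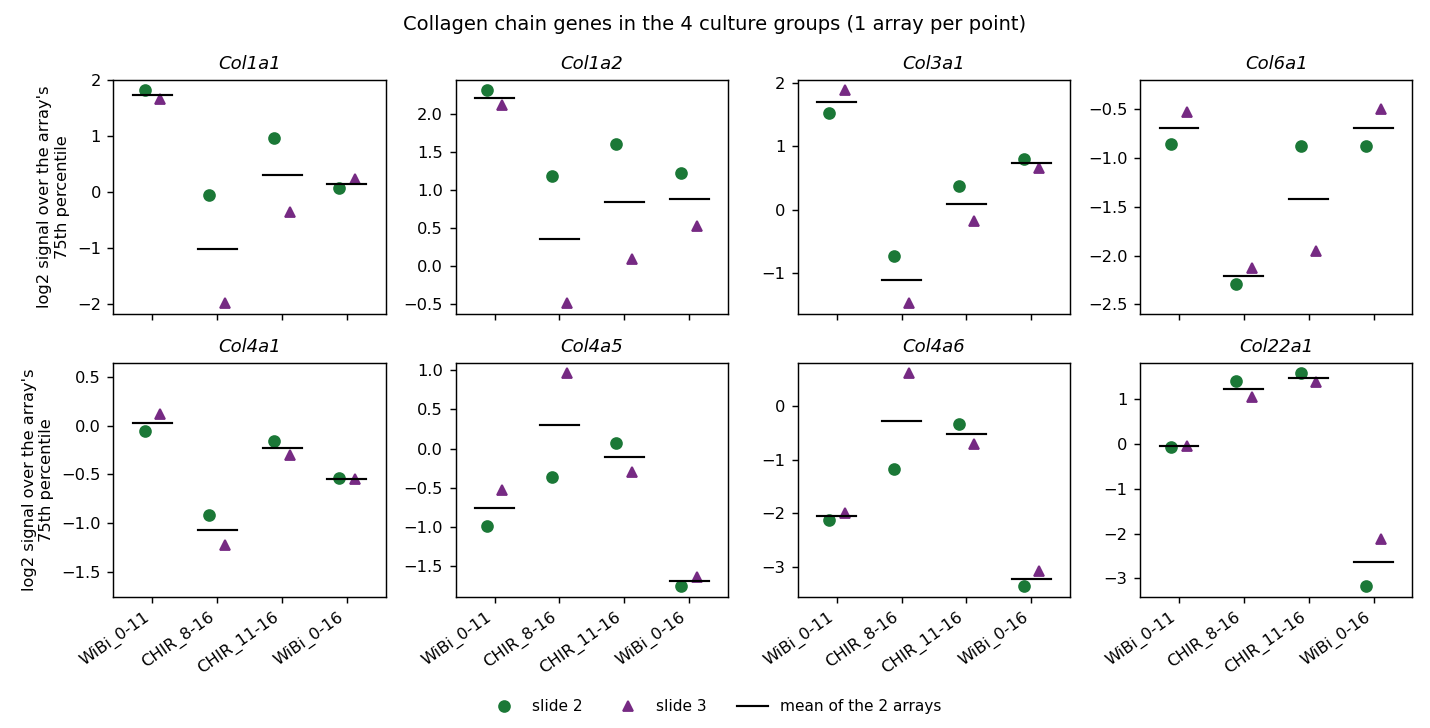
Log2 signal of 8 collagen genes on each culture array, with circles for slide 2, triangles for slide 3 and a line for the mean of the 2 arrays of a group; each panel has its own axis. Col1a1, Col1a2 and Col3a1 are highest in WiBi_0-11, Col6a1 and Col4a1 lowest in CHIR_8-16, and Col4a5, Col4a6 and Col22a1 lowest in WiBi_0-16.

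The same fibrillar genes were below WiBi_0-11 in the other 2 groups, without a call. Col3a1 differed by -1.61 in CHIR_11-16 (block SE 0.28, limma adjusted p = 0.262 with the block) and by -0.97 in WiBi_0-16 (0.28, 0.413). Col1a1 differed by -1.43 (0.53, 0.386) and -1.59 (0.53, 0.44), and Col1a2 by -1.37 (0.39, 0.33) and -1.34 (0.39, 0.413). WiBi_0-16, which had no agonist, was thus below WiBi_0-11 in type I signal on both slides. These 3 comparisons share the WiBi_0-11 arrays, so their values are not independent of each other. Between the agonist groups Col1a1 was lower in CHIR_8-16 by -1.33, Col3a1 by -1.20 and Col1a2 by -0.50, none of which passed (adjusted p = 0.432, 0.283 and 0.614 with the block).

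None of the other 6 tested fibrillar genes passed in any comparison at these settings. Col5a1, a type V chain that starts and limits fibrils, measured 0.10 and 0.00 in WiBi_0-11, 0.73 and 0.77 in CHIR_8-16, 0.25 and -0.26 in CHIR_11-16, and -0.14 and -0.26 in WiBi_0-16, so CHIR_8-16 was above every other array. Its partner chain Col5a2 measured -4.86 and -4.41, -5.57 and -5.42, -4.64 and -4.97, and -6.03 and -4.72, with CHIR_8-16 below WiBi_0-11 and CHIR_11-16 and WiBi_0-16 spanning nearly the whole range. Against WiBi_0-11, CHIR_8-16 differed in Col5a1 by 0.70 (block SE 0.17, limma adjusted p = 0.123 with the block) and in the agonist comparison Col5a1 differed by 0.45 and Col5a2 by -0.15 (0.0883 and 0.775). Col2a1, the chain of cartilage collagen that is also made in the embryonic neural tube, measured -1.36 and 0.40, -1.48 and -0.66, -1.47 and -0.90, and -1.39 and -0.26, and Col11a1, which copolymerises with it, -2.40 and -2.11, -2.28 and -1.48, -1.88 and -1.80, and -3.05 and -2.12. For Col2a1 the slides differed (slide 3 minus slide 2, log2 1.07, adjusted p = 0.0152); replicate 2 was the higher in all 4 groups. With the agonist they differed by -0.47 and 0.56 (adjusted p = 0.226 and 0.118 with the block).

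Over the 9 tested fibrillar genes CHIR_8-16 was lower than WiBi_0-11 on both slides for 5 and higher on both for 4, with a median of -0.59, beside 0.05 over all genes. At least 2-fold the same way on both slides were 5 of all 31 members in this comparison, against 2.48% of all genes: Col1a1, Col1a2, Col3a1 and Col6a1 lower and Col22a1 higher. In the agonist comparison they were 4 of 31 against 1.55%, with Col3a1 lower and Col4a5, Col4a6 and Col22a1 higher. In WiBi_0-16 against WiBi_0-11 they were 5 of 31 against 0.846%, all lower (Col1a1, Col1a2, Col4a6, Col18a1 and Col22a1). In CHIR_11-16 against WiBi_0-11 they were 3 of 31 against 1.05% (Col4a6 and Col22a1 higher, Col3a1 lower). A second Col4a6 probe had the opposite sign there, at -0.17. Between the agonist groups they were 3 of 31 against 1.44% (Col25a1 higher in CHIR_8-16, Col1a1 and Col3a1 lower).

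Of the type IV chains of basement membranes only Col4a6 passed a test, by the brighter of its 2 probes. Col4a1 and Col4a2, which form the common trimer of all basement membranes, overlap by 85 bases at their starts on chromosome 8. Col4a1 measured -0.05 and 0.12 in WiBi_0-11, -0.92 and -1.22 in CHIR_8-16, -0.16 and -0.30 in CHIR_11-16, and -0.54 and -0.55 in WiBi_0-16. Col4a2 measured -0.06 and 0.20, -0.58 and -0.58, 0.11 and 0.03, and -0.33 and -0.26. For both genes CHIR_8-16 was below every other array. Against WiBi_0-11 the differences of CHIR_8-16 were -1.10 (block SE 0.16, limma adjusted p = 0.0646 with the block, 0.226 without) and -0.65 (block SE 0.14, 0.107 and 0.356). Against CHIR_11-16 they were -0.84 and -0.65 (adjusted p = 0.218 and 0.254 with the block), and none passed.

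Col4a5 and Col4a6, which lie head to head on the X chromosome and form a trimer of specialised membranes such as those of Bowman's capsule and smooth muscle, were higher with the agonist, and like Col4a1 and Col4a2 they were lower in WiBi_0-16 than in WiBi_0-11. Col4a5 measured -0.98 and -0.53 in WiBi_0-11, -0.37 and 0.96 in CHIR_8-16, 0.08 and -0.30 in CHIR_11-16, and -1.76 and -1.64 in WiBi_0-16. Col4a6 measured -2.12 and -1.98, -1.18 and 0.60, -0.33 and -0.72, and -3.35 and -3.08 (probe at mm9 chrX:137599990-137600049). All 4 agonist arrays were above all 4 inhibitor-only arrays for both genes. With the agonist Col4a6 rose 4.67-fold (log2 2.22, block SE 0.36, limma adjusted p = 0.0436 with the block and 0.129 without; 1.97 and 2.47 on the slides). The call was lost in most fits that left out 1 array, which leave 1 array in a group and cannot show whether it rests on that array. Over the fits with the block Col4a6 differed by 1.30, the mean of its probes, to 2.67. Col4a5 differed by 1.32 (block SE 0.28, adjusted p = 0.0585 with the block; 1.22 and 1.42), which did not pass.

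The size of the Col4a6 difference, and for CHIR_11-16 against WiBi_0-11 its sign, depended on the probe. The second probe, printed above, was above background on all 8 arrays and measured -1.99 and -1.58 in WiBi_0-11, -1.83 and -1.29 in CHIR_8-16, -2.29 and -1.62 in CHIR_11-16, and -2.72 and -2.26 in WiBi_0-16. Its agonist difference was 0.38 and its groups overlapped, and the mean of both probes gave a log2 of 1.30, although WiBi_0-16 was lowest on each slide with either probe. The brighter probe stood for the gene by the rule applied to all genes. Against WiBi_0-11, Col4a6 by that probe was at 1.76 in CHIR_8-16, 1.52 in CHIR_11-16 and -1.16 in WiBi_0-16 (limma adjusted p = 0.149, 0.36 and 0.488 with the block). By the second probe it was at 0.22, -0.17 and -0.71. Against the same group Col4a5 was at 1.05 in CHIR_8-16 and -0.94 in WiBi_0-16 (limma adjusted p = 0.211 and 0.48 with the block). Col4a4, a chain of the glomerular membrane, measured -4.11 and -4.57, -3.79 and -3.61, -4.14 and -4.04, and -4.11 and -3.60, and differed with the agonist by 0.21 (adjusted p = 0.506 with the block). Its partner Col4a3, listed between -8.83 and -6.89, was not well above background on any of the 12 arrays.

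Among the other classes the largest difference was that of Col22a1, a FACIT chain found at junctions between muscle and tendon. It measured -0.06 and -0.04 in WiBi_0-11, 1.41 and 1.05 in CHIR_8-16, 1.58 and 1.38 in CHIR_11-16, and -3.17 and -2.12 in WiBi_0-16 (probe at mm9 chr15:71628906-71628965). The 3 levels did not overlap: both agonist groups on top, WiBi_0-11 between, and WiBi_0-16 at the bottom. With the agonist Col22a1 rose 6.52-fold (log2 2.70, block SE 0.25, limma adjusted p = 0.0245 with the block and 0.0658 without). The difference was 3.11 and 2.30 on the slides. The call was lost in most fits that left out 1 array, which leave 1 array in a group and cannot show whether it rests on that array. Over the fits with the block Col22a1 differed by 2.40 to 3.01. Against WiBi_0-11 it was at 1.28 in CHIR_8-16 and 1.53 in CHIR_11-16, and at -2.59 in WiBi_0-16 (adjusted p = 0.142, 0.306 and 0.392 with the block). WiBi_0-16, the group with inhibitors to day 16, thus stood farther from WiBi_0-11 than either agonist group did.

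None of the 3 tested chains of type VI collagen, which forms beaded filaments around cells, passed. Col6a1 measured -0.85 and -0.53 in WiBi_0-11, -2.29 and -2.13 in CHIR_8-16, -0.88 and -1.96 in CHIR_11-16, and -0.88 and -0.50 in WiBi_0-16. Col6a2 measured -3.12 and -2.68, -4.38 and -3.51, -3.67 and -3.72, and -3.48 and -3.00. For Col6a1 the low arrays were both of CHIR_8-16 and replicate 2 of CHIR_11-16. The agonist differences were -1.12 (block SE 0.27, limma adjusted p = 0.0726 with the block) and -0.75 (block SE 0.16, 0.0607), and those of CHIR_8-16 from WiBi_0-11 were -1.52 and -1.05 (0.126 and 0.11). The third, Col6a4, lay between -5.89 and -5.25 and differed with the agonist by 0.18 (adjusted p = 0.537 with the block). Agonist arrays were all below the inhibitor-only arrays for 3 of 31 members (Col3a1, Col6a1 and Col6a2) and all above for 3 (Col4a5, Col4a6 and Col22a1), beside 5.56% and 6.72% of all genes.

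The FACIT chain Col12a1, of tendon and fascia, measured -2.79 and -3.37 in WiBi_0-11, -3.85 and -2.97 in CHIR_8-16, -1.52 and -2.60 in CHIR_11-16, and -4.79 and -3.67 in WiBi_0-16. Col18a1, a heparan sulfate carrier of basement membranes whose end fragment is endostatin, measured -0.16 and 0.91, 0.005 and 0.27, 0.85 and 0.49, and -1.18 and -0.75. The lowest array of each was in WiBi_0-16. With the agonist they differed by 0.92 and 0.70 (limma adjusted p = 0.235 and 0.14 with the block), and WiBi_0-16 differed from WiBi_0-11 in Col18a1 by -1.34 (block SE 0.33, 0.403). Col9a1, a FACIT chain on cartilage fibrils, measured -5.34 and -3.63, -4.28 and -3.55, -4.79 and -3.55, and -4.54 and -3.56, so that slide 3 was higher in every group (log2 1.17, adjusted p = 0.00786). Its partner Col9a3, between -7.39 and -5.28, was above background on 1 of 8 culture arrays.

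Of the transmembrane chains, Col23a1 measured -3.45 and -2.68, -3.69 and -3.14, -3.86 and -2.91, and -3.43 and -3.00. Col25a1, which was first found in amyloid plaques and is needed by motor axons to reach muscle, measured -2.81 and -3.63, -1.50 and -3.17, -2.98 and -4.26, and -2.34 and -3.39. By the probes used, slide 3 was higher in every group for Col23a1 and lower in every group for Col25a1. The helix probe of Col25a1 was instead higher on slide 3 in every group (-3.96 and -2.79, -3.89 and -3.29, -3.82 and -3.09, and -3.60 and -2.59). Its remaining passing probe was higher on slide 3 except in WiBi_0-16 (-5.74 and -7.45). With the agonist Col23a1 and Col25a1 differed by -0.26 and 0.07 (limma adjusted p = 0.239 and 0.83 with the block). Between the agonist groups Col25a1 was higher in CHIR_8-16 by 1.48 on slide 2 and 1.09 on slide 3. The other 2 probes of Col25a1 that passed gave 0.82 and, for the helix probe printed above, -0.13 for that difference. Of 9 tested members with several passing probes, 2 had a probe of opposite sign in the agonist comparison and 4 in WiBi_0-16 against WiBi_0-11.

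Genes that act on collagens were counted from lists of partners, of which 82 genes were tested. Without the block none passed in any of the 5 comparisons. In these fits 8 to 21 were at an unadjusted p under 0.05 (limma), beside 2.62% to 14.6% of all genes. With the block 1 of 82 fell in CHIR_8-16 against WiBi_0-11, where 0.309% of all genes passed. With the agonist 4 of 82 rose and 3 fell, beside 2.87% and 2.08% of all genes. Among 19 basement membrane partners, Lama4, the laminin chain of vessel walls, fell in both. In CHIR_8-16 it was not well above background, so it was at least 2.64-fold lower there than in WiBi_0-11 (means of -5.97 and -3.95, limma adjusted p = 0.0244 with the block), a bound that sets the brighter group's mean against the dimmest signal above background. With the agonist it differed by -1.63 (adjusted p = 0.0204 with the block), with 2 of the 4 agonist arrays above background. With the agonist the laminin chains Lamb1 (0.64, 0.0482) and Lamb2 (0.66, 0.0371) rose. Lama1, Lamc1, Nid1, Hspg2 (perlecan) and Sparc differed by 0.86, 0.13, -0.29, 0.83 and 0.72 and did not pass (adjusted p = 0.0572, 0.459, 0.664, 0.0686 and 0.221). Among 14 fibril partners Tnc, which encodes tenascin C, rose (0.96, 0.0273).

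Of 8 collagen receptors Itga11, an integrin chain for fibrillar collagen, fell with the agonist (log2 -1.35, limma adjusted p = 0.0463 with the block). Itgb1, Ddr1 and Adgrg1 differed by 0.28, 0.52 and -0.15 (0.201, 0.0936 and 0.636). None of 18 tested genes for chain modification, folding and secretion passed. With the block 6 were at an unadjusted p under 0.05 (limma), beside 26.6% of all genes. The collagen chaperone Serpinh1 and the prolyl hydroxylase chain P4ha1 were at 0.90 and 1.02 (limma adjusted p = 0.0622 and 0.115 with the block). None of 10 processing and cross-linking genes passed. With the block 9 were at an unadjusted p under 0.05 (limma), beside the same 26.6% of all genes, and Lox itself was not among the genes tested. Of 13 degradation genes Timp4, a metalloprotease inhibitor, fell (-1.59, 0.0319).

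Some markers of other cell types also passed. Of 12 mesenchymal and meningeal fibroblast markers 9 were tested, and with the agonist 6 were higher and 3 lower, with a median of 0.06. Pdgfra fell (log2 -2.50, limma adjusted p = 0.0318 with the block) and Prrx1 rose (1.17, 0.0415), while Lum and Dcn were at -0.24 and -0.31 (0.741 and 0.746). The summed signal of the 12, in units of the 75th percentile, was 2.37 to 3.00 in WiBi_0-11, 1.76 to 2.13 in CHIR_8-16, 1.83 to 1.91 in CHIR_11-16 and 1.21 to 2.55 in WiBi_0-16, with 8 to 11 of them above background. Their part in the lower signal of Col3a1, Col1a1, Col1a2 and Col6a1 was not tested. Vessel markers were unevenly detected. Among mural markers Pdgfrb, Cspg4, Acta2 and Tagln were above background on all 8 culture arrays, Myh11 on 2, Abcc9 on 1, and Rgs5 and Kcnj8 on 0. Among endothelial markers Pecam1, Kdr, Flt1 and Esam were above background on all 8, Cldn5 on 4, Tie1 on 2, Cdh5 on 1, and Tek and Emcn on 0. None of the 4 mural or 5 endothelial markers tested passed with the agonist. With the block 1 of each was at an unadjusted p under 0.05 (limma), beside 26.6% of all genes.

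Among 6 tested cartilage and bone markers Ibsp, which encodes a bone sialoprotein, fell with the agonist (log2 -2.55, limma adjusted p = 0.0204 with the block), with 2 of the 4 agonist arrays above background. In CHIR_8-16 it was not well above background and was at least 8.78-fold below WiBi_0-11 (means of -7.39 and -2.24, adjusted p = 0.0131 with and 0.038 without the block). Of the same list Matn1 and Matn3 were above background on no array, whereas Acan and Alpl were on all 8 culture and 4 tissue arrays. Acan measured -3.80 to -2.71 in the cultures and -4.55 to -4.14 in the tissues. Of 7 progenitor markers Hes5 rose (0.89, limma adjusted p = 0.0478 with the block), and none of the 8 neuron markers or 5 tested endoderm markers passed. With the block 2 and 0 of these were at an unadjusted p under 0.05 (limma), beside 26.6% of all genes. Their part in the collagen results was not tested.

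In the E15 brain, collagen signal was highest in midbrain and, within the telencephalon, in hippocampus. There is 1 array per tissue and so no test. Of 41 members 38 were well above background in at least 1 tissue, and 26 of these had their highest array in midbrain, 6 in hippocampus, 4 in cortex and 2 in ventral telencephalon. The highest tissue was not counted over all genes, so these counts do not show what is particular to collagens. Hippocampus was at least 2-fold above cortex for 16 of 38 and below for 2, beside 6.72% and 5.72% of all genes, with a median log2 of 0.90 against -0.09. Col8a1 among the 16 and Col6a6 among the 2 were above background in neither tissue. Midbrain was at least 2-fold above the mean of the 3 telencephalic tissues for 20 of 38 and below for 0, beside 11.7% and 5.51%, with a median of 1.2 against -0.04. Col6a4, Col6a6, Col8a1, Col10a1, Col13a1 and Col24a1 are among these 20 and among the 26 above, but were above background in midbrain alone. They were thus counted only through the tissue where they were highest. Ventral telencephalon was at least 2-fold above the mean of cortex and hippocampus for 6 and below for 8, beside 7.57% and 6.33%, with a median of 0.06 against -0.12. Of the 6, Col6a4, Col8a1 and Col24a1 were above background in none of the 3 telencephalic tissues, so their differences compare signals near the floor. After normexp background correction the counts past 2-fold were 13 higher in midbrain, 2 higher in ventral telencephalon and 0 lower in hippocampus.

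**Figure D3:**
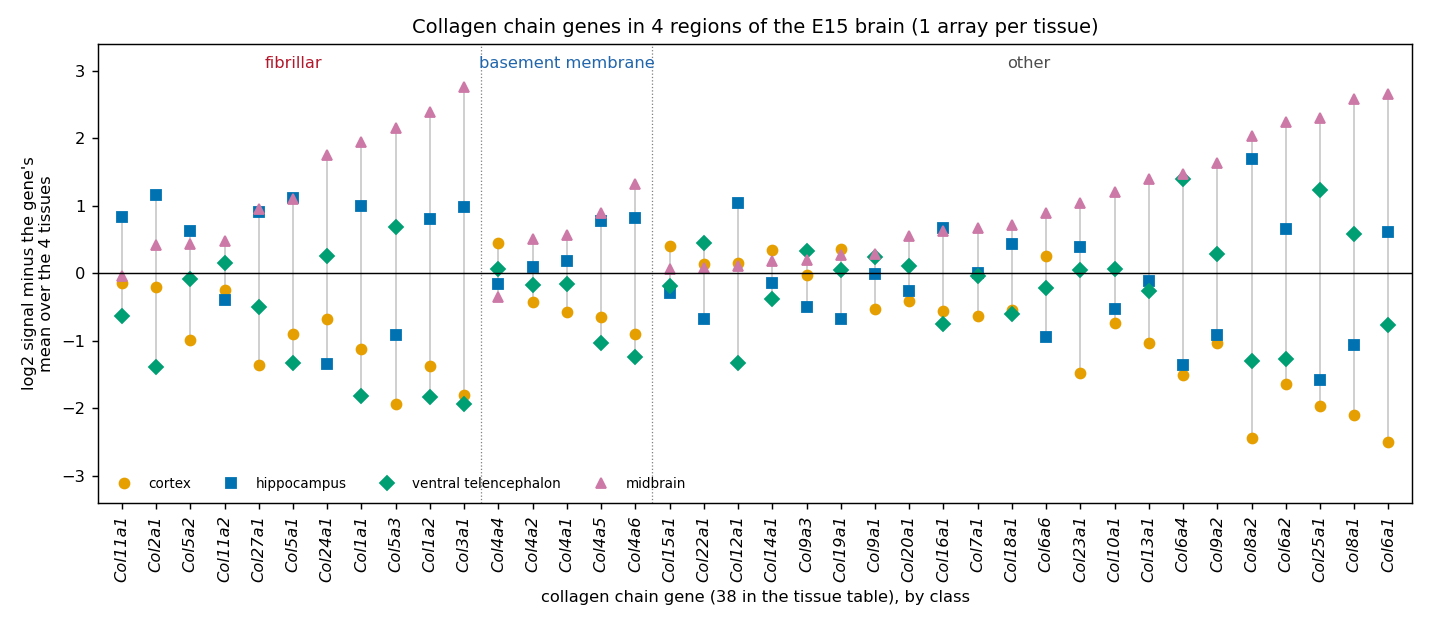
Log2 signal of 38 collagen genes in 4 regions of the E15 brain, relative to each gene's mean over the regions, with 1 array per tissue and genes grouped by class and ordered by the midbrain difference. Midbrain is the highest point for 26 of 38 genes, some of them above background in midbrain alone, and hippocampus lies above cortex for 29 of 38. Neither count was made over all genes.

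The fibrillar chains differed most between hippocampus and cortex: 8 of 11 were at least 2-fold higher and 0 lower, with a median of 1.62. Col3a1 measured -1.62 in cortex, 1.17 in hippocampus, -1.76 in ventral telencephalon and 2.94 in midbrain. Col1a1 measured -0.67, 1.46, -1.36 and 2.41, and Col1a2 0.64, 2.82, 0.18 and 4.41. So midbrain was highest, hippocampus next, and cortex and ventral telencephalon lowest for all 3 genes, with hippocampus over cortex at 6.93-fold, 4.37-fold and 4.51-fold. Col5a1 had the same low pair (-2.40 and -2.83) but was level in hippocampus and midbrain (-0.39 and -0.40). Col2a1 was highest in hippocampus (3.21, against 1.84 in cortex, 0.66 in ventral telencephalon and 2.46 in midbrain), as was Col11a1 (-0.70, against -1.68, -2.16 and -1.57). Col5a2 measured -2.34, -0.72, -1.44 and -0.91, and cortex was its lowest array.

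Among basement membrane chains Col4a5 and Col4a6 again went together. Col4a5 measured -1.61 in cortex, -0.20 in hippocampus, -2.00 in ventral telencephalon and -0.07 in midbrain, and Col4a6 -2.68, -0.96, -3.02 and -0.45. For both genes hippocampus and midbrain formed a high pair, and hippocampus exceeded cortex by 2.67-fold and 3.29-fold. Col4a1 (1.06, 1.82, 1.48 and 2.21) and Col4a2 (1.22, 1.74, 1.48 and 2.15) spanned 1.15 and 0.93 log2 units, with cortex lowest and midbrain highest. Col4a4 went from -2.65 in cortex to -3.45 in midbrain by its brightest probe, but a second probe read -4.40 in cortex and -3.09 in hippocampus.

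Of the other chains Col8a2, a network chain of corneal and vessel membranes, measured -6.07 in cortex, where it was not well above background, -1.94 in hippocampus, -4.93 in ventral telencephalon and -1.59 in midbrain, so that hippocampus was at least 16.4-fold above cortex on this scale. Over the scalings tried its measured difference was 1.87 to 4.16 on the log2 scale, and its second probe, above background in 1 tissue, measured -5.76 in cortex and -5.85 in hippocampus. Col6a1 measured -3.47, -0.36, -1.73 and 1.68 (hippocampus over cortex 8.61-fold) and Col6a2 -4.40, -2.11, -4.04 and -0.52. Both type VI chains had the order of Col3a1 in cortex, hippocampus and midbrain. Col25a1 differed from it: it measured -5.09 in cortex and -4.71 in hippocampus, but -1.89 in ventral telencephalon and -0.83 in midbrain, 8.05-fold above the mean of cortex and hippocampus in ventral telencephalon (log2 3.01, and 1.63 at the lowest of the scalings tried). Its helix probe, above background in all 4 tissues, read -3.87, -4.25, -3.86 and -2.91, with ventral telencephalon level with cortex. Its remaining probes, above background in 2 tissues each, were high in ventral telencephalon and midbrain. Col12a1 (-2.02, -1.13, -3.50 and -2.07) was lowest in ventral telencephalon, Col18a1 (0.66, 1.63, 0.60 and 1.93) was high in hippocampus and midbrain, and Col23a1 (-4.35, -2.47, -2.81 and -1.82) was lowest in cortex. Col22a1 measured 0.97, 0.15, 1.28 and 0.90, with hippocampus the lowest array. Col9a1 and Col9a3 spanned 0.82 and 0.83 log2 units.

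Marker signal differed between the dissected tissues too. The summed signal of the 12 mesenchymal and meningeal fibroblast markers was 1.99 in cortex, 8.72 in hippocampus, 2.51 in ventral telencephalon and 17.2 in midbrain, with 8, 12, 5 and 12 of them above background, and like Col1a1, Col1a2 and Col3a1 it was high in midbrain, then in hippocampus. Ttr, the transthyretin gene of choroid plexus, stood at -4.07, 4.83, 1.25 and 4.25, and the endoderm list that holds it summed to 0.40, 29.2, 2.83 and 22.3. Endothelial markers summed to 18.2, 19.4, 18.4 and 21.5, and mural markers to 10.9, 11.1, 5.58 and 13.5. Cartilage and bone markers summed to 0.35, 0.66, 0.78 and 0.86, neuron markers to 383.2, 291.2, 378.1 and 388.4 and progenitor markers to 192.8, 256.4, 183.2 and 206.8. The part of any of these in the collagen differences was not tested.

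Set beside the tissues, the cultures were lower in Col4a1 and Col4a2, the common basement membrane chains. All 8 cultures lay above all 4 tissues for 5 of 38 members and below for 8, beside 12.8% and 7.91% of all genes, so the count above is near the share over all genes. The tissue arrays lay on a slide of their own, so slide and source cannot be told apart. Below were Col4a1 (-1.22 to 0.12 in cultures, 1.06 to 2.21 in tissues), Col4a2 (-0.58 to 0.20 and 1.22 to 2.15) and, by its brightest probe, Col4a4, which are 3 of the 5 basement membrane chains in that table. By a second Col4a4 probe cultures and tissues overlapped (-5.01 to -2.57 and -5.79 to -3.09). Col2a1 (-1.48 to 0.40 and 0.66 to 3.21), Col5a2 (-6.03 to -4.41 and -2.34 to -0.72), Col9a1 (by a brighter probe than in the culture test), Col9a2 and Col9a3 (above background on 1 of 8 cultures) were also below. By the probes used, this takes in the 3 type IX chains and the type II chain they bind in cartilage. By the culture-test probe of Col9a1, cultures and tissues overlapped (-5.34 to -3.55 and -4.95 to -4.30). Above were Col7a1, the anchoring fibril chain of skin (0.18 to 1.71 in cultures, -2.77 to -1.48 in tissues), Col20a1, Col27a1, Col11a2 and Col5a1 (-0.26 to 0.77 and -2.83 to -0.39). The sum of endothelial markers moved the same way as Col4a1 and Col4a2, at 4.08 to 9.1 in cultures and 18.2 to 21.5 in tissues. Of these markers Kdr (log2 1.88 to 3.11 and 2.56 to 3.18) and Pecam1 overlapped. The sum of mural markers was 1.25 to 3.46 and 5.58 to 13.5, with Acta2, Tagln and Myh11 overlapping. Their part in the difference was not tested.

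**Figure D4:**
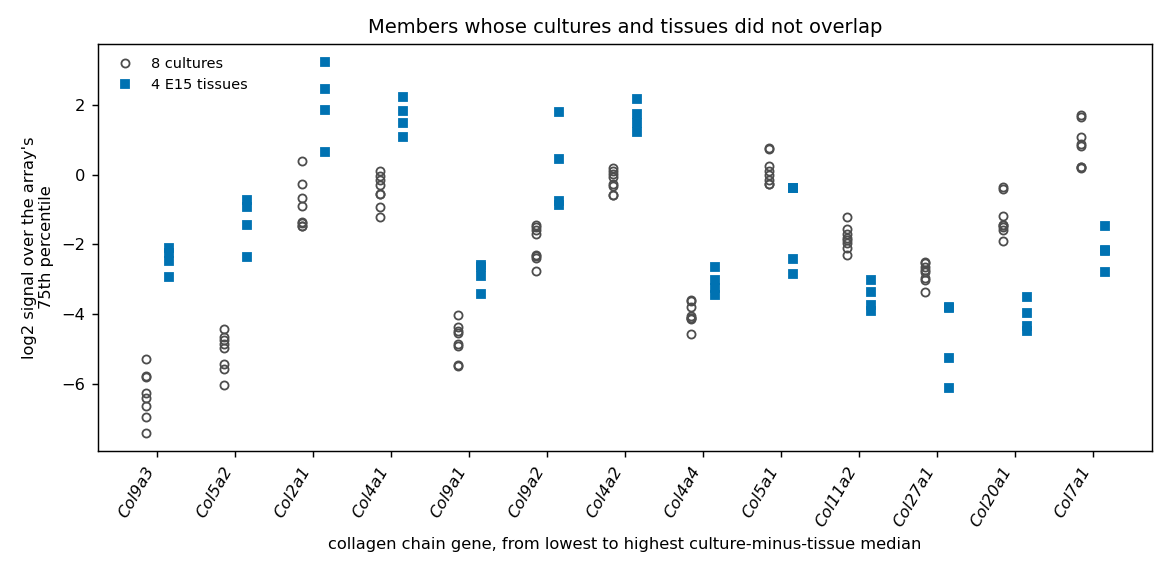
Log2 signal of the 13 collagen genes whose 8 culture arrays (open circles) and 4 tissue arrays (squares) did not overlap by the probe used for each gene, ordered by the difference of medians. The 8 genes at left are lower in the cultures, Col9a3 and Col5a2 by the most, and the 5 at right are higher, Col7a1 by the most.

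Col3a1, Col1a1 and Col1a2 overlapped between cultures and tissues. Col3a1 in the cultures spanned -1.47 to 1.88, within the -1.76 to 2.94 of the tissues, and Col4a6 spanned -3.35 to 0.60 against -3.02 to -0.45. The agonist cultures, which the labels liken to hippocampus in the case of CHIR_8-16, and the E15 hippocampus therefore stood on opposite sides of their references for Col3a1: CHIR_8-16 differed from WiBi_0-11 by -2.81 and hippocampus from cortex by 2.79. For Col4a6 both differences were positive by its brighter probe (1.76 and 1.72), and so were those of Col4a5 (1.05 and 1.42). The second Col4a6 probe gave 0.22 in the cultures and had no value in cortex. The differences of cultures and tissues share no array. In the cultures Col3a1 passed here and Col4a6 only in the agonist comparison, and the tissues have no test.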

How the data were processed

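Expression was measured on Agilent 1-colour arrays (design 028005) of 8 cultures and 4 embryonic tissues. The authors deposited scanner files with intensity values, extracted with Agilent Feature Extraction 10.7.3.1 per the file headers, whereas the submitters' processing notes name version 9.1. They also deposited a series table of log2 values whose normalization is not given in the sources used here; its column medians were 6.18 to 6.23, and each column correlated best with its own array (r = 0.989 to 0.994). Processed signals were divided by the 75th percentile of the array and put on a log2 scale, without control or marked spots. Spots of a probe were averaged, and the brightest probe that passed the background filter stood for a gene. Groups were compared over all genes with limma 3.58.1 (R 4.3.3) and Benjamini-Hochberg adjustment at 0.05, on 4 residual degrees of freedom, or 3 with slide as a block; all 4 culture groups were in the fit. The script was tested on simulated data. Same-numbered replicates shared a slide and deviated together (r = 0.579 to 0.667 over genes), so the block pairs them. Tissues had no test.

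Values per array are given for each member called with or without the block and for a list of anchor collagens; of the partner lists, each called gene and 12 others are named, except 1 called gene that is counted but not reported here. The members, the collagen classes, the partner lists and the marker lists were chosen with earlier results of these data known. Alternatives were quantile normalization, normexp (offset 50), the series table, no background filter, the mean of probes, a trended prior, only the groups compared, and leaving out each array. The mean signal was not among the columns used here, so normexp ran on the median signals of spot and background. Combining these settings with the block, and counting 2-fold differences on both slides, were chosen after seeing the data.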

Additional observations from a re-analysis of the deposited data

Results flagged for a closer look

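A collagen value stood apart in a set of 4 arrays that mixed groups and slides. Among the 4 inhibitor-only cultures, Col20a1 had its highest array in WiBi_0-16 replicate 1 at a log2 of 0.074, with the nearest at -1.21. The gap was 0.837 of the whole range, above Dixon's critical value for 4 samples. The 4 arrays joined WiBi_0-11 with WiBi_0-16 and slide 2 with slide 3, so the gap does not show a faulty array. Col20a1 differed by slide (slide 3 minus slide 2, log2 -0.87, limma adjusted p = 0.0421), and CHIR_8-16 replicate 1, also on slide 2, read 0.08. Tests ran on 62 such sets of 4 arrays, and chance alone marks about 1 in 20.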

How the results depend on the processing

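With the replicate block (slide), 1 member passed in CHIR_8-16 against WiBi_0-11 and 3 with the agonist, against 0 and 0 without it; in CHIR_11-16 and WiBi_0-16 against WiBi_0-11 and between the agonist groups the block changed no call. With the block these counts were 1 and 3 under quantile normalization, the series table and the mean of probes. They were 4 and 6 under normexp, and 4 and 9 with a trended prior. Calls among all 25538 genes changed too. They were 79 and 1265 at the main settings with the block, 104 and 890 under quantile normalization, 195 and 967 in the series table, and 89 and 1348 by the mean of probes. Under normexp they were 426 and 2040, and with a trended prior 1030 and 3419. The test among the 4 groups gave 2 members under normexp, 5 with a trended prior and 1 in the series table, beside 471, 1629 and 98 of all genes. Without the block the agonist count was 1 under quantile normalization and under normexp and 2 with a trended prior, beside 35, 23 and 65 of all genes. The test among the 4 groups gave 1 under normexp, beside 3 of all genes. With 1 array left out most of the calls at the main settings with the block were lost, but such fits leave 1 array in a group. The members' median in CHIR_8-16 against WiBi_0-11 was -0.03 by the mean of probes, with or without the block. With 1 array left out, the medians ranged from -0.25 to 0.17 in that comparison, -0.24 to 0.06 for CHIR_11-16, -0.48 to 0.006 for WiBi_0-16, -0.26 to 0.18 between agonist groups (from -0.15 with the block) and -0.20 to 0.04 with the agonist. The sign turned without 1 array for Col1a2 between the agonist groups (-1.34 to 0.35) and, with the agonist, for Col9a1 (-0.21 to 0.65), Col25a1 (-0.35 to 0.48; with the block -0.09 and -0.064 where it turned), Col5a2 (-0.47 to 0.18; 0.10 and 0.16), Adgrg1 (-0.30 to 0.007) and Nid1 (-0.76 to 0.18). In tissues, hippocampus was 2-fold below cortex for 1, 0, 0 and 1 members under quantile normalization, normexp, the series table and the mean of probes; under normexp ventral telencephalon was higher for 2 and midbrain for 13. The causes were not tested. A left-out array leaves 1 sample, assumed to vary like the other groups.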

Other observations

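Several members differed by slide and passed no test between groups at the main settings, which does not show that their groups were equal. Col8a2, Col9a2, Col15a1 and Col19a1 were higher on slide 3 by log2 1.27, 0.88, 0.83 and 0.48, and Col7a1 and Col20a1 differed by -0.96 and -0.87 (limma, adjusted p under 0.05 for each). None of the 5 tested basement membrane chains differed by slide in that fit. Col8a2, Col15a1 and Col19a1 were dim, between -5.96 and -3.82 in the cultures. The dimmest signal well above background was itself higher on slide 3 (-5.48 to -4.90) than on slide 2 (-6.57 to -5.78). Ttr, the choroid plexus gene, measured -0.68 in CHIR_8-16 replicate 1 and -4.15 in replicate 2, and lay between -6.41 and -5.15 in the other 6 cultures.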
